A study of Mus musculus with 8 samples.

Results

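The 10 genes described here write, copy or erase DNA methylation, or feed its removal, and were followed in hematopoietic stem cells (HSCs) of mice with acute hemolytic anemia. They were chosen by symbol: the DNA methyltransferases Dnmt1, Dnmt3a and Dnmt3b, the Dnmt1 cofactor Uhrf1, the dioxygenases Tet1, Tet2 and Tet3, the glycosylase Tdg, and the isocitrate dehydrogenases Idh1 and Idh2. All 10 were among the 15142 genes listed in every expression table, and 9 of them were among the 11347 genes tested. Dnmt1 and Uhrf1, which act where DNA is copied, were read apart from the rest. Earlier results of these data were known when the genes were chosen, so counts set against all genes are descriptions.

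RNA was sequenced from HSCs of wild-type C57BL/6 mice, aged 8 to 12 weeks in the study's methods, with 8 libraries in all. Phenylhydrazine (PHZ), a drug that lyses red cells, was given into the peritoneum at 60 mg/kg in 2 injections, and HSCs were sorted at 3 days after the last one. The groups were bone marrow HSCs of mice labelled as given PBS (control BM HSC, n = 3), bone marrow HSCs of PHZ-treated mice (PHZ BM HSC, n = 3) and spleen HSCs of PHZ-treated mice (PHZ SP HSC, n = 2). No group carried an engineered allele, and the sort gate was lineage-negative, Sca-1+, c-kit+, CD150+ and CD48 negative or low. There was no spleen group from mice without PHZ, so organ and treatment cannot be told apart in the comparison of spleen with control. The labels do not say that libraries came from separate mice, so p-values measure the spread between libraries.

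DNA methylation in mammals is the addition of a methyl group to cytosine, mostly where cytosine is followed by guanine. Dnmt3a and Dnmt3b place new marks, while Uhrf1 recognizes the half-methylated DNA left by the replication fork and brings Dnmt1 to copy the old strand's pattern onto the new strand. Tet enzymes oxidize the methyl group, using iron and alpha-ketoglutarate, and Tdg removes the later oxidation products so that base excision repair can put back plain cytosine. Idh1 and Idh2 make alpha-ketoglutarate. In blood, Tet2 and Dnmt3a are known as genes whose loss of function expands HSC clones. The 3 genes the results turn on most lie, in mm10, at chr9:20907206-20959888 on the minus strand (Dnmt1), chr17:56303337-56323486 on the plus strand (Uhrf1) and chr3:133463677-133545136 on the minus strand (Tet2), where the antisense gene Gm42567 overlaps Tet2.

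Dnmt1 and Uhrf1 also shared a feature of sequence that the choice of genes did not use. E2F proteins switch on many S-phase genes through sites of the type TTTCCCGC, TTTCGCGC, TTTGGCGC or TTTGCCGC. These 4 words were searched on both strands in the 250 bases before each annotated start in RefSeq (GRCm38.p6), where words on opposite strands can overlap, though each promoter below held 1 match. Of 32851 promoters, 1.86% held at least 1 word. Among the 9108 tested genes with a promoter in the table, 377 (4.14%) had a word in at least 1 of their promoters. Of the 10 genes followed here, all with a promoter in the table, 2 did, and these were Dnmt1 and Uhrf1. Among the replication genes listed below, 6 of the 19 with a promoter did. The matching promoters of Dnmt1 and Uhrf1 held 68.4% and 69.6% G or C in the 250 bases, where the median promoter held 52.4%. The shares were not matched for base composition. Each of the pair held the word in 1 of its promoters, and the stretches are printed 5′ to 3′ along the gene's strand, with the word in capitals.
Dnmt1, chr9:20952824-20952853, minus strand: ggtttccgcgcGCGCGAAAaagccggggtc
Uhrf1, chr17:56304082-56304181, plus strand: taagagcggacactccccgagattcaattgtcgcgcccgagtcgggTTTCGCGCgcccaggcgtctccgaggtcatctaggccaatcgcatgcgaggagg
The Dnmt1 word began 219 bases before the most downstream of its 3 starts in the table, and it fell inside the first exon, in the 5′ untranslated part, of a transcript that starts further upstream. In Uhrf1 it began 185 bases before the second of 2 starts, outside exons. A match is a description of letters, not a measured binding site.

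Sequencing depth was similar among the libraries, with 8216167 to 13199736 reads recovered from the tables, of which the ribosomal RNA gene Rn45s took 43.3% to 48.6%. All 9 HSC markers averaged at least 1 FPKM (fragments per kilobase of gene, scaled to library depth) in each group. In bulk RNA, fewer cells of a type and less RNA per cell cannot be told apart. Some lists of other cell types differed between the groups. Sums of erythroid, neutrophil and macrophage markers were highest in PHZ SP HSC. Sums of B cell, T and NK cell and megakaryocyte markers in PHZ SP HSC overlapped with the control. The megakaryocyte sum in PHZ BM HSC lay below the control, and limma called 2 of 5 tested megakaryocyte markers lower there (voom 0). In PHZ SP HSC, limma called 1 of 2 tested T and NK cell markers higher against control and against PHZ BM HSC. The summed FPKM of 10 erythroid markers was 601 to 760 in control BM HSC, 574 to 718 in PHZ BM HSC and 1489 to 1619 in PHZ SP HSC. For 10 neutrophil markers it was 429 to 737, 509 to 1057 and 1413 to 1802, and for 8 macrophage markers 5.13 to 15.6, 6.77 to 21.1 and 38.3 to 61.6. For 7 B cell markers it was 27.5 to 50.6, 28.7 to 31.3 and 39.1 to 54.3. For 9 T and NK cell markers it was 20.5 to 61.2, 31.5 to 50.3 and 43.9 to 53.9, and for 6 megakaryocyte markers 114 to 135, 82.1 to 101 and 87.8 to 141. Markers listed at 0 in every library of a group were Ctsg, Cd3d and Gzmb in control BM HSC, Igll1 in PHZ BM HSC and Prf1 in PHZ SP HSC. The summed FPKM of 9 immediate early genes, which also answer to cell handling, was 106 to 137, 824 to 1042 and 267 to 308, and 8 of the 9 were called higher in PHZ BM HSC than in control (limma). Atf3, of that list, was at 0 in every control library. The part of any of these lists in the results that follow was not tested.

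In the control, the genes covered a wide span of levels. Idh2 was highest at 77.8 ± 7.39 FPKM (SD, n = 3), followed by Dnmt1 at 18.0 ± 3.60, Uhrf1 at 15.3 ± 6.46, Dnmt3b at 11.0 ± 1.65 and Idh1 at 9.46 ± 1.65 FPKM. Dnmt3a stood at 3.37 ± 0.259, Tet3 at 2.67 ± 0.389, Tet1 at 2.56 ± 0.313, Tet2 at 1.85 ± 0.317 and Tdg at 0.223 ± 0.0976 FPKM. The library ranges of neighbours overlapped from Dnmt1 down to Idh1 and from Dnmt3a down to Tet1, so the order within those runs is not settled. In PHZ BM HSC the means of Dnmt1 (8.70 ± 0.922 FPKM) and Uhrf1 (3.87 ± 1.78 FPKM) stood below those of Idh1 (11.7 ± 3.46) and Dnmt3b (9.73 ± 4.01), although Dnmt1 overlapped with both.

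**Figure D1:**
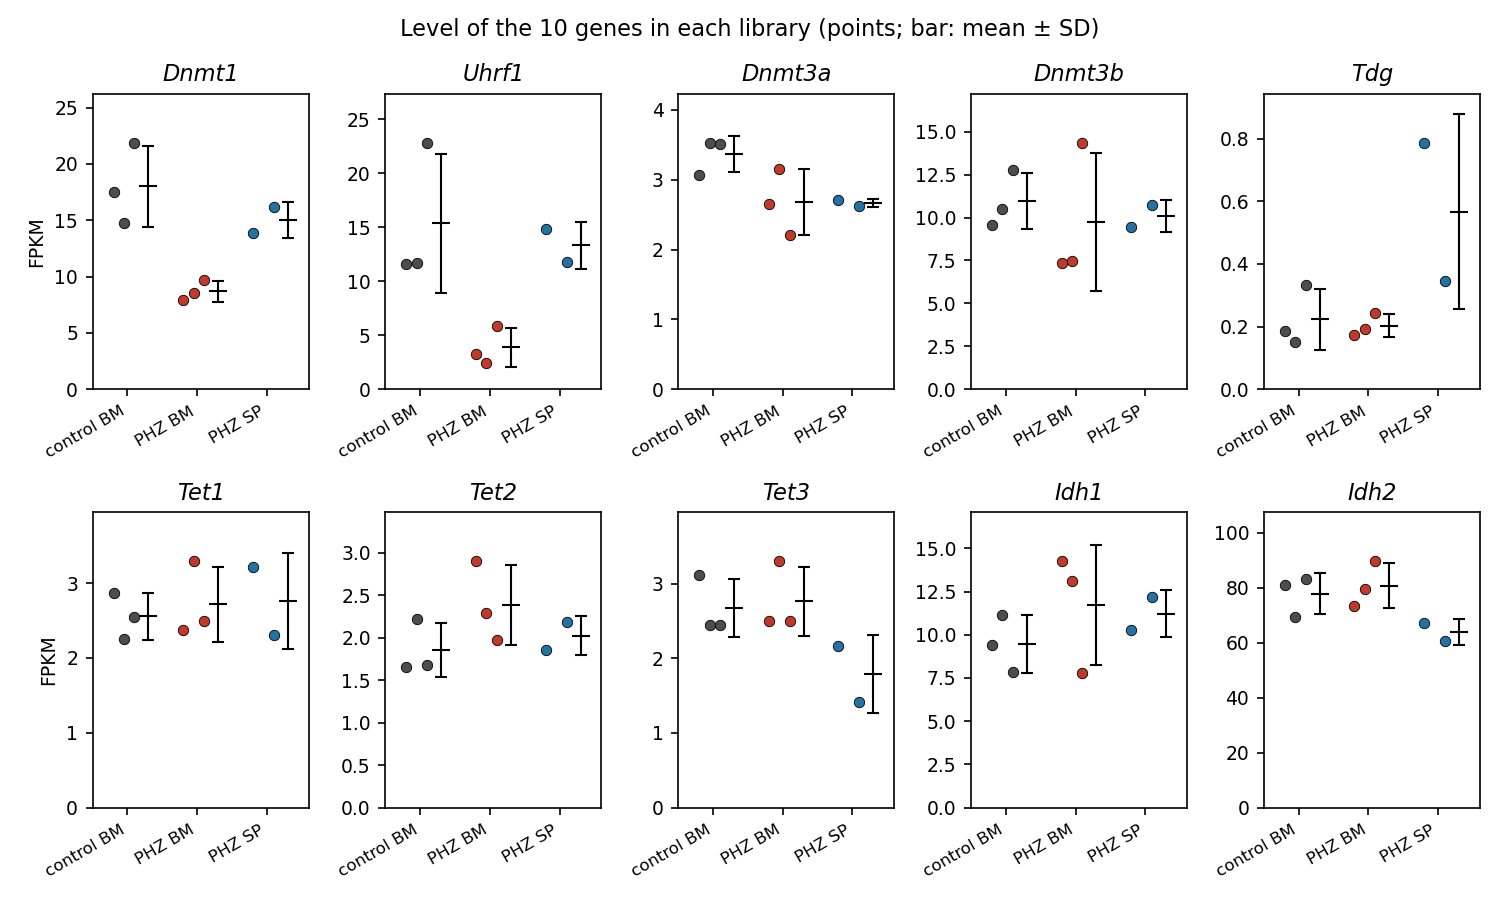
Level of each gene in FPKM (vertical axis, from 0, a separate scale per panel) in the 3 control BM HSC, 3 PHZ BM HSC and 2 PHZ SP HSC libraries; points are libraries and the bar beside them is the mean with its SD. Dnmt1 and Uhrf1 have their PHZ BM HSC points, at most 9.71 and 5.87 FPKM, below all points of both other groups.

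The maintenance pair fell in bone marrow HSCs during anemia. Of the 9 genes tested in PHZ BM HSC against control BM HSC, 2 passed the threshold (adjusted p below 0.05, limma) and both were lower, where 2.74% of all genes tested passed in either direction and 1.26% were lower. These 2 were the only ones of the 9 whose libraries did not overlap between the groups. That count is near the share of all genes tested, where 23.9% did not overlap.

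Dnmt1, the maintenance methyltransferase, was at 17.5, 14.8 and 21.9 FPKM in the control libraries, at 7.90, 8.50 and 9.71 FPKM in PHZ BM HSC and at 13.9 and 16.2 FPKM in PHZ SP HSC. The 3 PHZ BM HSC libraries were the lowest of the 8. Dnmt1 in log2(FPKM + 1), where added 1 makes folds of weakly expressed genes too small, fell by 0.96 ± 0.20 (SE) in PHZ BM HSC against control (adjusted p = 0.0265, limma, lower in 3 of 3 libraries). It rested on 589 to 2075 reads a library. The call was lost in limma without control replicate 1 (adjusted p = 0.0599) or 3 (0.0798) and without PHZ BM HSC replicate 1 (0.137) or 2 (0.127), with the fold between -1.09 and -0.82 over all libraries left out in turn.

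Uhrf1, which reads half-methylated DNA, was at 11.6, 11.6 and 22.8 FPKM in the control libraries, at 3.29, 2.45 and 5.87 FPKM in PHZ BM HSC and at 14.9 and 11.7 FPKM in PHZ SP HSC. Control replicate 3 stood apart at the top, and no PHZ BM HSC library reached any other. Uhrf1 fell by 1.74 ± 0.31 in PHZ BM HSC against control (adjusted p = 0.0137, limma, lower in 3 of 3 libraries), the largest change among the 9 genes. Without PHZ BM HSC replicate 1 or 2 its adjusted p in limma was 0.0644 and 0.0710, and with any other library left out it was at most 0.0467.

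Spleen HSCs of the same treatment did not show the low values. Between PHZ SP HSC and the control, 0 of the 9 genes passed in limma, 0 had an unadjusted p below 0.05 and voom, which models reads, called 0. Among all 11347 genes tested, 0.758% passed and 1791 had an unadjusted p below 0.05. Dnmt1 differed by -0.24 (95% interval -0.72 to 0.25) and Uhrf1 by -0.13 (-0.91 to 0.64), so changes in either direction within those bounds are compatible with these libraries. Against PHZ BM HSC, 0.978% of all 11347 genes passed and 1530 had an unadjusted p below 0.05. Of the 9 genes, 0 passed in limma and 0 in voom, and 2 had an unadjusted p below 0.05. Those were Uhrf1, at 1.61 ± 0.35 above PHZ BM HSC (adjusted p = 0.0609, limma), and Dnmt1, at 0.72 ± 0.22 above it (adjusted p = 0.175, limma), both with all spleen libraries above all PHZ BM HSC libraries. In that comparison 4 of the 9 genes had groups that did not overlap, where 34.8% of all genes did, and in spleen against control 3 of 9, where 28.9% did. In PHZ SP HSC against PHZ BM HSC, Uhrf1 passed in limma when only the 2 groups compared were fitted (adjusted p = 0.0487), without control replicate 3 (0.0455) and without PHZ BM HSC replicate 3 (0.0340). The 3 comparisons share libraries and are not independent of each other.

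**Figure D2:**
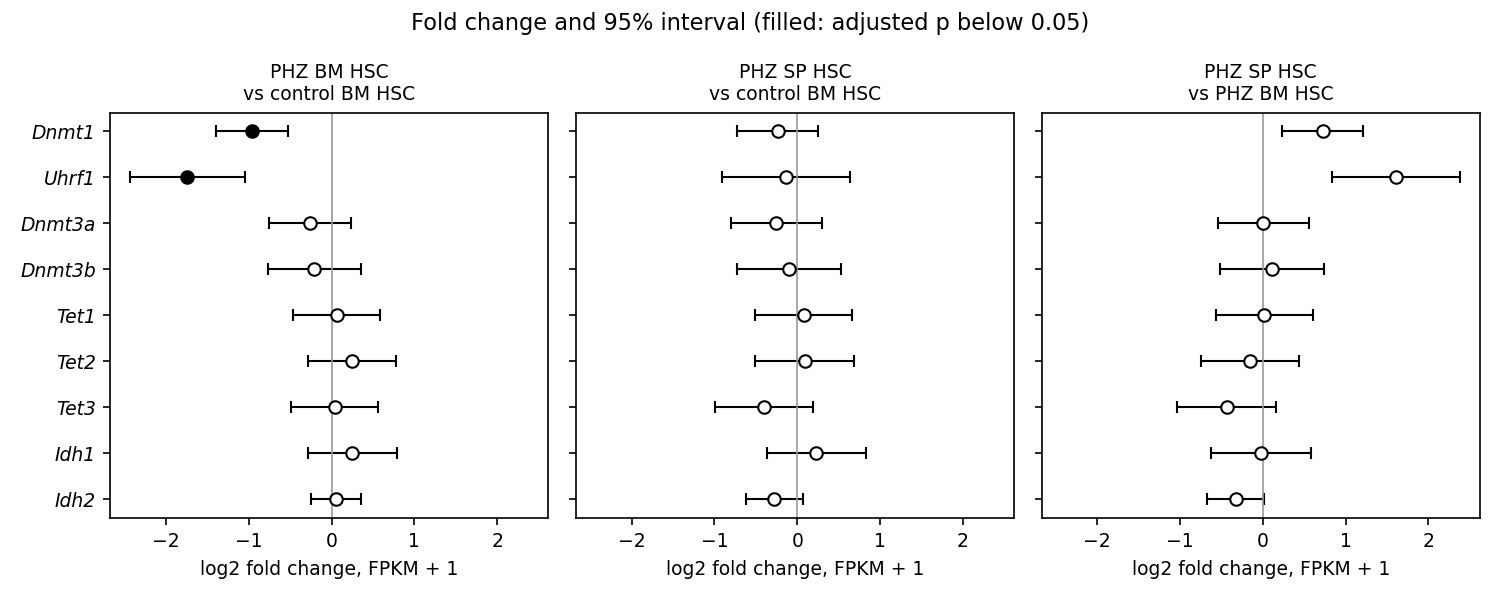
Difference in log2(FPKM + 1) with its 95% interval for the 9 genes tested, in the 3 comparisons; filled points passed the threshold. Dnmt1 and Uhrf1 are filled in PHZ BM HSC against control at -0.96 and -1.74, and no point is filled in the other panels.

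Genes of the replication fork gave a scale for the pair. The MCM helicase, of 6 subunits from Mcm2 to Mcm7, is loaded on DNA to license replication, and its genes averaged 4.90, 5.02 and 5.45 on the log2(FPKM + 1) scale in the control libraries. The same mean was 4.05, 4.18 and 4.82 in PHZ BM HSC and 5.04 and 4.98 in PHZ SP HSC. PHZ BM HSC replicate 3 lay closest to the control. All 6 MCM genes were below the control in PHZ BM HSC, with folds of -1.30 to -0.44 and a median of -0.73 against 0.01 over all genes tested. Of these 6, limma called Mcm5 alone (fell by 1.30, adjusted p = 0.0478), a call kept in 3 of 6 other settings and with 1 of 8 libraries left out. Voom also called Mcm7 lower (-0.65, adjusted p = 0.0436), a subunit named after its value was seen. Without a library, Mcm5's adjusted p ranged from 0.0108 to 0.183.

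Dnmt1 moved about as far as the MCM mean. Its level minus that mean was -0.69, -1.04 and -0.93 in the control, -0.90, -0.93 and -1.40 in PHZ BM HSC and -1.14 and -0.87 in PHZ SP HSC, all on the log2 scale. The groups overlapped, and the difference of -0.19 between PHZ BM HSC and control had an exact permutation p of 0.6 (two-sided, n = 3 and 3). With 18 other replication genes as the scale the difference was 0.09.

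Uhrf1 went further down than the MCM genes, but not further than all replication genes. Its fold in PHZ BM HSC against control was -1.74, and the 18 other replication genes spanned -1.92 to 0.14. Relative to the MCM mean, Uhrf1 stood at -1.25, -1.36 and -0.88 in the control, -1.95, -2.39 and -2.04 in PHZ BM HSC and -1.05 and -1.30 in PHZ SP HSC. The PHZ BM HSC libraries lay below all others. The difference from control was -0.97 (exact permutation p = 0.1, two-sided, the smallest that 3 against 3 libraries can give) and it was -0.69 with the 18 other replication genes as the scale. For PHZ SP HSC minus PHZ BM HSC it was 0.95 (exact permutation p = 0.1, again the smallest possible). The level of the 6 other genes relative to the MCM mean, for Tet1, Tet2, Tet3, Dnmt3a, Idh1 and Idh2, was higher in PHZ BM HSC than in control. The differences were 0.52 to 1.03, with exact permutation p of 0.1 to 0.3 (two-sided). The MCM mean itself differed by -0.77 between these groups, while the genes' own folds were -0.26 to 0.25. These relative values thus hold the fall of the reference. Over the 60 such tests of levels and shares within libraries, the smallest Benjamini-Hochberg adjusted p was 0.333.

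**Figure D3:**
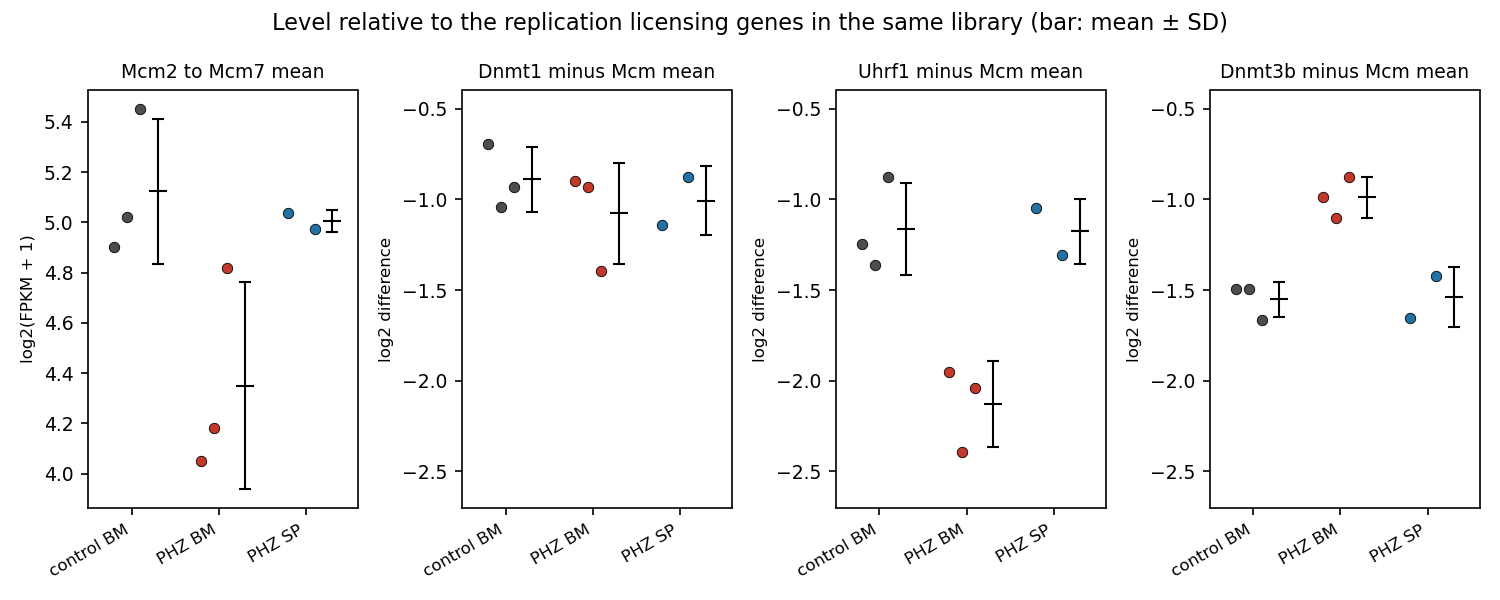
Mean log2(FPKM + 1) of Mcm2 to Mcm7 (left) and the level of Dnmt1, Uhrf1 and Dnmt3b minus that mean (log2 difference) in each library of the 3 groups, with group mean and SD as bars. Dnmt1 overlaps between groups, Uhrf1 is lowest in PHZ BM HSC (-2.39 to -1.95) and Dnmt3b is highest there (-1.10 to -0.88). The Mcm mean is itself lowest in PHZ BM HSC (4.05 to 4.82).

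The genes that place new marks showed no call. Dnmt3b was at 9.60, 10.5 and 12.8 FPKM in the control, at 7.38, 7.44 and 14.4 FPKM in PHZ BM HSC and at 9.44 and 10.7 FPKM in PHZ SP HSC. PHZ BM HSC held both its lowest libraries and, in replicate 3, its highest. Its difference in PHZ BM HSC against control was -0.21 (95% interval -0.77 to 0.35; adjusted p = 0.735, limma). Relative to the MCM mean, Dnmt3b stood at -1.49, -1.49 and -1.66 in the control and at -0.98, -1.10 and -0.88 in PHZ BM HSC, which did not overlap (difference 0.56, exact permutation p = 0.1, two-sided, the smallest possible). The MCM mean itself differed by -0.77 between these groups, so this value holds the fall of the reference.

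Dnmt3a was at 3.07, 3.53 and 3.51 FPKM in the control, at 2.65, 3.16 and 2.21 FPKM in PHZ BM HSC and at 2.71 and 2.63 FPKM in PHZ SP HSC. Both spleen libraries lay below every control library, and 1 of the 3 PHZ BM HSC libraries overlapped the control. The differences from control were -0.26 in PHZ BM HSC (95% interval -0.75 to 0.24; adjusted p = 0.618, limma) and -0.25 in PHZ SP HSC (-0.80 to 0.30; adjusted p = 0.668, limma). An antisense gene overlaps each of Dnmt3a and Dnmt3b in GENCODE, and a pseudogene is named for Dnmt3a. Their reads therefore cannot be assigned with certainty without the strand and multi-mapping settings. Other annotated genes overlap Tet1, Tet2, Tet3, Dnmt1, Tdg and Idh2, on the same or the opposite strand, and the same limit holds for these.

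The make-up of the methyltransferase RNA followed from these levels. Dnmt1 made up 58.0%, 51.2% and 57.3% of the summed FPKM of the 3 methyltransferases in the control, 44.1%, 44.5% and 36.9% in PHZ BM HSC and 53.3% and 54.7% in PHZ SP HSC. The PHZ BM HSC libraries lay below all others, with a difference from control of -13.7 percentage points (exact permutation p = 0.1, two-sided, the smallest possible). Dnmt3b took 31.8% to 36.5% in the control, 39.0% to 54.6% in PHZ BM HSC and 36.3% to 36.4% in PHZ SP HSC. Dnmt3a took 9.20% to 12.3%, 8.42% to 16.5% and 8.90% to 10.4%, and the groups overlapped.

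**Figure D4:**
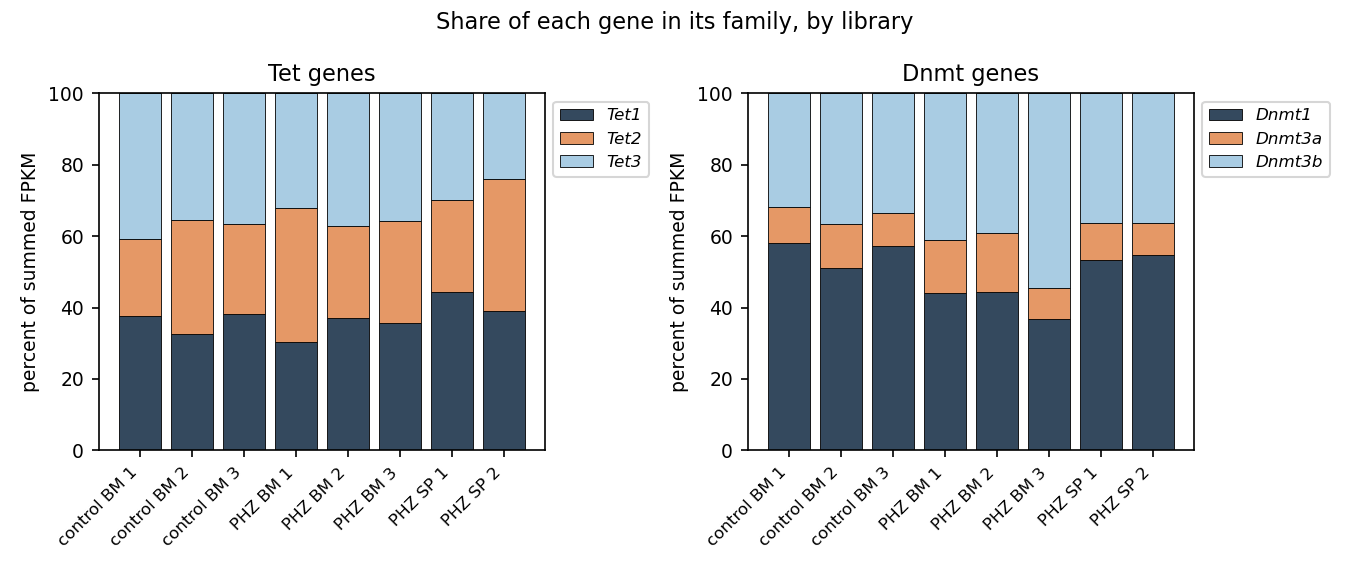
Percent of the summed FPKM of the Tet genes (left) and of the Dnmt genes (right) taken by each gene, stacked from 0 to 100 for each of the 8 libraries. The Dnmt1 share is 36.9% to 44.5% in PHZ BM HSC and 51.2% to 58.0% in the control, and the Tet3 share is lowest in PHZ SP HSC.

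No Tet gene passed in any comparison. Tet2, the oxidase with the best known role in blood, was at 1.66, 2.22 and 1.68 FPKM in the control, at 2.90, 2.29 and 1.97 FPKM in PHZ BM HSC and at 1.86 and 2.19 FPKM in PHZ SP HSC. The 3 groups overlapped, on 191 to 358 reads a library. Its differences were 0.24 for PHZ BM HSC against control (95% interval -0.29 to 0.77; adjusted p = 0.661, limma), 0.09 for PHZ SP HSC against control (-0.50 to 0.68; 0.911) and -0.16 for PHZ SP HSC against PHZ BM HSC (-0.75 to 0.44; 0.859). These intervals are wide, so they do not show that Tet2 RNA was equal, and RNA does not measure its protein.

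Tet3, which shares the catalytic domain, was at 3.12, 2.44 and 2.45 FPKM in the control, at 2.50, 3.30 and 2.49 FPKM in PHZ BM HSC and at 2.16 and 1.42 FPKM in PHZ SP HSC. Both spleen libraries were below the other 6. The difference was -0.40 ± 0.27 (SE) against control (adjusted p = 0.503, limma) and -0.44 ± 0.27 against PHZ BM HSC (95% interval -1.03 to 0.15; adjusted p = 0.516), neither past the threshold. Tet1 was at 2.87, 2.25 and 2.55 FPKM in the control, at 2.37, 3.29 and 2.49 FPKM in PHZ BM HSC and at 3.22 and 2.31 FPKM in PHZ SP HSC, with overlap throughout and differences of 0.02 to 0.08.

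As shares of their summed FPKM, each of the 3 Tet genes took between 21.7% and 40.8% in the control. Tet2 took 21.7%, 32.1% and 25.1% there, 37.3%, 25.8% and 28.3% in PHZ BM HSC and 25.7% and 37.0% in PHZ SP HSC. The Tet2 shares overlapped between all groups. Tet3 took 35.4% to 40.8% in the control, 32.2% to 37.2% in PHZ BM HSC and 29.9% and 24.0% in PHZ SP HSC, which lay below the others (difference from control -10.7 percentage points, exact permutation p = 0.1, two-sided, the smallest possible). The sum of the 3 genes was 6.67 to 7.65 FPKM, 6.96 to 8.88 FPKM and 5.92 to 7.24 FPKM in the 3 groups.

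Tdg was too low to test. It was at 0.185, 0.150 and 0.334 FPKM in the control, at 0.172, 0.192 and 0.244 FPKM in PHZ BM HSC and at 0.787 and 0.347 FPKM in PHZ SP HSC, from 6 to 39 reads a library. Both spleen libraries were above the other 6. With no filter on low values its difference was 0.35 against control (adjusted p = 0.385, limma) and 0.37 against PHZ BM HSC (0.420). A processed pseudogene, Tdg-ps, on chromosome 15 resembles the transcript, and reads shared with it could have been lost or split in the authors' counting.

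Idh2, the mitochondrial enzyme, was at 81.1, 69.4 and 83.0 FPKM in the control, at 73.3, 79.5 and 89.6 FPKM in PHZ BM HSC and at 67.3 and 60.6 FPKM in PHZ SP HSC. The spleen libraries were the lowest of the 8, without passing the test: -0.28 against control (95% interval -0.62 to 0.06; adjusted p = 0.417, limma) and -0.33 against PHZ BM HSC (-0.67 to 0.01; 0.386). Idh1, the cytosolic enzyme, was at 9.41, 11.1 and 7.83 FPKM in the control, at 14.2, 13.1 and 7.76 FPKM in PHZ BM HSC and at 10.3 and 12.2 FPKM in PHZ SP HSC. PHZ BM HSC held the 2 highest libraries and the lowest, and the differences ran from -0.02 to 0.25. Idh2 made up 86.2% to 91.4% of the summed FPKM of the pair in the control, 83.7% to 92.0% in PHZ BM HSC and 83.3% to 86.8% in PHZ SP HSC.

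Leaving out Dnmt1 and Uhrf1, the 7 other genes tested differed from control by -0.26 to 0.25 in PHZ BM HSC, with a median of 0.05 and a smallest adjusted p of 0.618. In PHZ SP HSC they differed from control by -0.40 to 0.23, with a smallest adjusted p of 0.417 (limma).

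The rest of the pathway was read through lists of 153 genes, of which 143 were tested. These lists too were chosen with earlier results of these data known, so their counts are descriptions. In PHZ BM HSC against control 15 of these were called, where 2.74% of all genes tested were. All 15 were lower, and 12 of them were in the 2 replication lists. Of 18 other replication genes, 17 lay below the control and 11 were called lower. The median was -1.17 over the list against 0.01 over all genes. Rrm2 and Rrm1, the subunits of ribonucleotide reductase, fell by 1.92 and 1.29 (adjusted p = 0.00433 and 0.00512, limma), Gmnn, the licensing inhibitor geminin, by 1.51 (0.00750) and Prim1, the small primase subunit, by 1.42 (0.0101). Prim1 lost its call without PHZ BM HSC replicate 1 (0.0571) or 2 (0.0599).

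Outside the replication lists, 3 genes were called lower in the same comparison. Of 17 base excision repair genes, 2 were called. Neil3, a glycosylase found mostly in dividing cells, was at 5.17, 2.73 and 8.23 FPKM in the control and at 0.567, 0.479 and 0.473 FPKM in PHZ BM HSC, and it fell by 1.99 (adjusted p = 0.00723, limma), where pseudocount 0.1 gave -3.04 and voom -3.33. Lig1, the ligase that seals Okazaki fragments, was at 15.0, 10.1 and 21.6 FPKM and at 3.11, 3.07 and 6.23 FPKM, and it fell by 1.68 (0.0135). Of 11 tested partners of Tet and Dnmt proteins, Hells, a chromatin remodeler needed for DNA methylation, was at 4.12, 4.51 and 4.16 FPKM and at 0.397, 0.502 and 1.55 FPKM, and it fell by 1.59 (0.0111), where pseudocount 0.1 gave -2.46 and voom -2.54. Without PHZ BM HSC replicate 1 or 2, limma gave Hells adjusted p = 0.0686 and 0.0692 and Lig1 0.0713 and 0.0723, and Lig1 had 0.0515 without control replicate 3.

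The supply of cofactors and the readers of methylation gave few calls. In PHZ BM HSC against control limma called 0 of 9 methyl-CpG readers (0 with an unadjusted p below 0.05), 0 of 21 genes of alpha-ketoglutarate and 2-hydroxyglutarate metabolism (4), 0 of 15 genes of S-adenosylmethionine supply (0), 0 of 12 genes of ascorbate and iron handling (3), 0 of 12 genes tied to TET2 protein turnover (3) and 0 of 22 other dioxygenases with the same cofactors (3). Over all 11347 genes tested, 1886 had an unadjusted p below 0.05. The medians of these 6 lists ran from -0.18 to 0.32. Across these 6 lists voom called 1 gene, Kdm4b, a histone demethylase, as higher (1.29, adjusted p = 0.0455). It is named after its value was seen.

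In PHZ SP HSC against control 2 of the 143 were called, where 0.758% of all genes tested were. Tfrc, the transferrin receptor that brings iron into cells, was at 0.645, 1.98 and 3.33 FPKM in the control, at 3.58, 3.13 and 5.19 FPKM in PHZ BM HSC and at 9.47 and 11.3 FPKM in PHZ SP HSC. It rose by 2.04 (adjusted p = 0.0411, limma), and erythroid markers, whose sum is given above, were higher in the same libraries. The Tfrc call was lost without control replicate 2, without PHZ BM HSC replicate 1 or 2 or without either spleen library (adjusted p = 0.0672 to 0.195), and also with pseudocount 0.1 (0.0763), with no filter (0.0789) and in the fit of only the 2 groups (0.1005). Capns1, the small regulatory subunit of calpain proteases, was at 20.9, 18.2 and 20.5 FPKM in the control, at 12.5, 12.7 and 13.8 FPKM in PHZ BM HSC and at 6.53 and 8.03 FPKM in PHZ SP HSC. It fell by 1.34 (adjusted p = 0.0133, limma), and its adjusted p was 0.132 without spleen replicate 1 and 0.0569 in the fit of only the 2 groups.

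Of the other lists, limma called 0 of 9 readers (1 with an unadjusted p below 0.05), 0 of 17 base excision repair genes (3), 0 of 11 partners (3), 0 of 21 alpha-ketoglutarate genes (5), 0 of 15 S-adenosylmethionine genes (2), 0 of 22 other dioxygenases (2), 0 of 6 MCM genes (1) and 0 of 18 other replication genes (1). In these 8 lists voom called 0. Over all 11347 genes tested, 1791 had an unadjusted p below 0.05 in this comparison. In the list of TET2 protein turnover voom also called Capn2, a calpain catalytic subunit. It was higher in PHZ SP HSC (2.01, adjusted p = 0.0290, voom), opposite in direction to Capns1, and limma did not call it. Capn2 is named after its value was seen.

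In PHZ SP HSC against PHZ BM HSC 4 of the 143 were called, where 0.978% of all genes tested were. All 4 were higher in spleen and had fallen in PHZ BM HSC, a comparison that shares those libraries. Rrm2 rose by 2.75 (adjusted p = 0.00389, limma), Gmnn by 1.55 (0.0268), Rrm1 by 1.10 (0.0387) and Neil3 by 1.74 (0.0450). Rrm2 reached 37.6 and 21.1 FPKM in PHZ SP HSC, above the 2.75, 3.15 and 4.21 FPKM of PHZ BM HSC. It had an adjusted p of 0.0582 without spleen replicate 1, and Gmnn, Rrm1 and Neil3 had at least 0.0991 without either of PHZ BM HSC replicates 1 and 2 and at least 0.110 without either spleen library. With no filter on low values, Gmnn (0.0718), Rrm1 (0.0753) and Neil3 (0.0906) did not pass, nor did Gmnn (0.0511) and Neil3 (0.0988) with voom or Rrm1 (0.0550) in the fit of only the 2 groups. The fold of Neil3 was 2.77 with pseudocount 0.1 and 2.98 with voom. Neil3 (0.0895) was also lost without PHZ BM HSC replicate 3 and Rrm1 (0.0578) without control replicate 3. The 6 MCM genes were all above PHZ BM HSC, with a median of 0.64, but 0 were called by limma or voom. An unadjusted p below 0.05 was found for 3 of them and for 1530 of all 11347 genes tested.

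**Figure D5:**
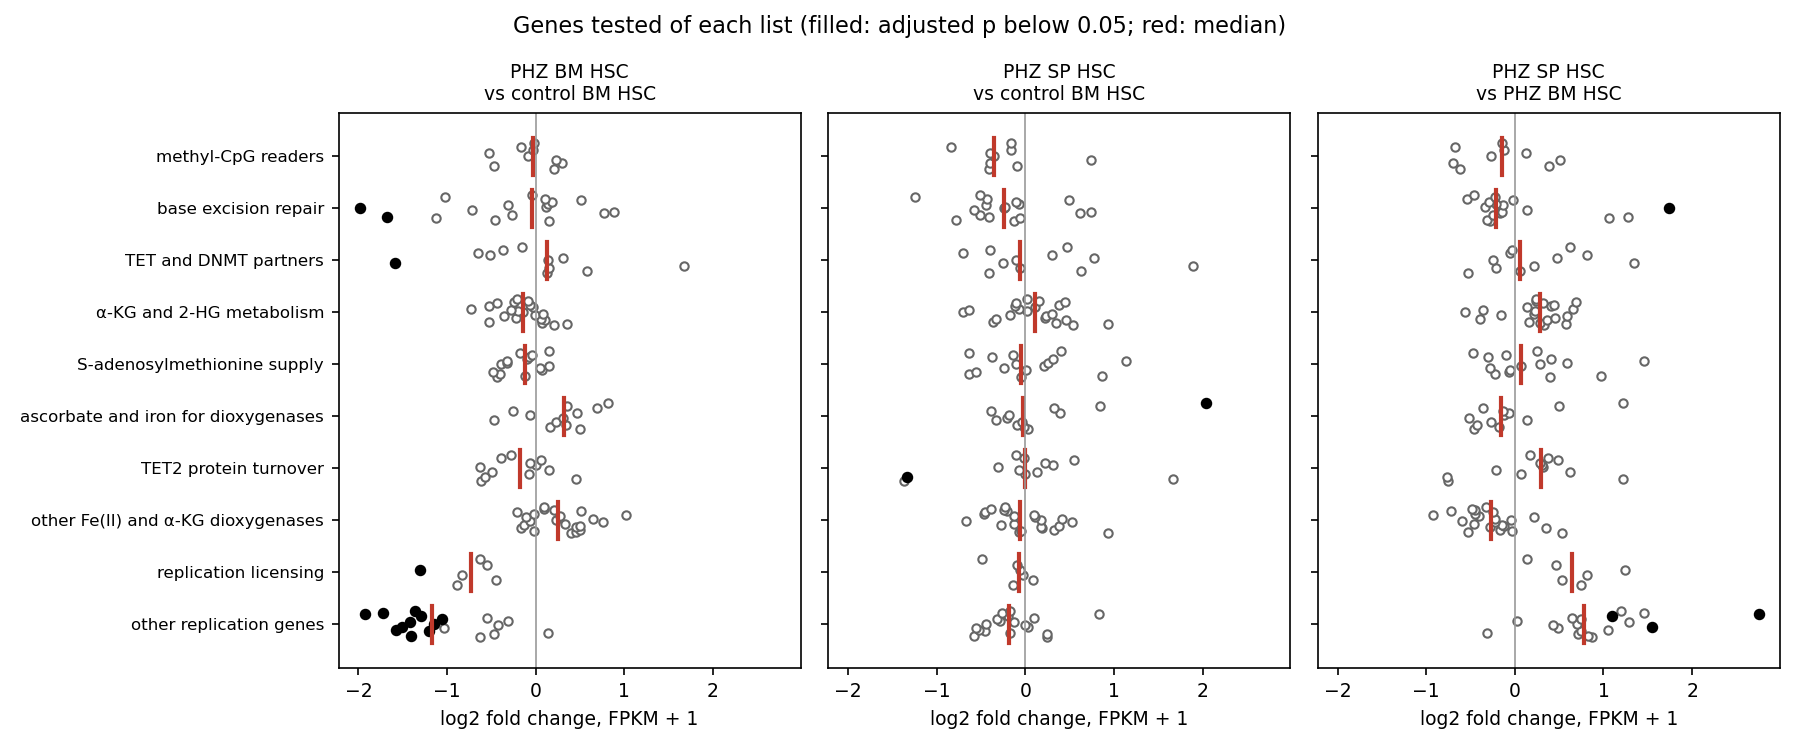
Difference in log2(FPKM + 1) of every tested gene in 10 lists for the 3 comparisons; each circle is a gene, filled where its adjusted p was below 0.05, and the red line is the median of the list. In PHZ BM HSC against control the 2 replication lists lie to the left (medians -0.73 and -1.17) while the other medians lie between -0.18 and 0.32.

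The patterns over the 8 libraries were compared without regard to lists. The measure was the mean absolute gap between log2(FPKM + 1) values, each centred on its own mean, among about 8510 genes that vary at least as much as the 25th percentile. Closest to Dnmt1 were Slbp (gap 0.09), Cenpf (0.11) and Cenpw (0.11). Closest to Uhrf1 were Gmnn (0.12), Tk1 (0.13) and Pclaf (0.14), and Dnmt1 ranked 85 at 0.39. Counted from Dnmt1, the same gap put Uhrf1 at rank 1540, behind Dnmt3b at rank 779 (0.33) and Dnmt3a at rank 962 (0.34). Values were not scaled for the size of each gene's changes, so a gene that moves the same way but further ranks lower. In PHZ BM HSC against control Uhrf1 differed by -1.74 and Dnmt1 by -0.96, while Dnmt3b and Dnmt3a differed by -0.21 and -0.26. Closest to Tet2 were Mxd1 (0.11), Kctd13 (0.11) and Tmco6 (0.12), with Idh1 at rank 13 (0.13). Dnmt1 and Uhrf1 were far from Tet2, with gaps of 0.50 and 0.89. These gaps are descriptions over 8 libraries.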

How the data were processed

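RNA of sorted HSCs was made into libraries with SMART-Seq2 and Nextera XT, and the authors mapped reads to mm10 with STAR. The gene counter, annotation and strand setting are not given in the sources used here. The authors deposited FPKM per gene and library, 1 table for each group, and these were treated here as scaled separately. Tables of the authors' own DESeq2 fold changes and p-values were deposited too and are not used. Whole reads were recovered from the FPKM steps: all 108151 values above 0 came out whole (100%, tolerance 0.001 reads), with 358 genes known only up to a common factor. FPKM were rescaled with median-of-ratios factors over 15142 genes (by at most 1.06%).

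Genes reaching 1 FPKM in at least 2 libraries (11347) were tested on log2(FPKM + 1) with limma 3.58.1 (trend and robust, R 4.3.3, two-sided), all 8 libraries in 1 fit, Benjamini-Hochberg adjusted over all genes tested, threshold 0.05. The routine was tested on simulated data. Voom on the recovered reads called 65 genes in PHZ SP HSC against PHZ BM HSC, where limma called 111. Values within libraries were compared with exact permutation tests. Gene names and promoters came from RefSeq (GRCm38.p6), overlapping genes from GENCODE. Groups came from sample titles. The 10 genes and the lists were chosen with earlier results of these data known. Named were the 10 genes, at most the 4 called genes with the smallest p of each list and comparison, and the 3 nearest genes to Dnmt1, Uhrf1 and Tet2.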

Additional observations from a re-analysis of the deposited data

How the results depend on the processing

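Dnmt1 and Uhrf1 passed in PHZ BM HSC against control under all 6 other settings (pseudocount 0.1 FPKM, no filter, FPKM as deposited, a fit of only the 2 groups, the replicate block, voom), with adjusted p of 0.0119 to 0.0496 and 0.00258 to 0.0467. With each library left out in turn, 0 to 2 of the 9 genes were called there and 0 to 1 in PHZ SP HSC against PHZ BM HSC. In the latter, 1 (Uhrf1) was called in the 2-group fit and 1 with the replicate block. Deviations of same-numbered libraries correlated at -0.008 to 0.060 over 7 pairs, 0 of them over 0.1. With so few libraries a group, this cannot decide whether marrow and spleen libraries came from the same mice. The replicate block gave 10 list genes for spleen against PHZ BM HSC. It reversed the sign of Dnmt3b (0.094) and Uhrf1 (0.16) in spleen against control and of Tet1 (-0.0044) and Dnmt3a (-0.029) in spleen against PHZ BM HSC.

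Of the 143 list genes, 9, 1 and 1 were called with no filter in the 3 comparisons, where more genes were tested. In spleen against control the count was 1 with pseudocount 0.1 and 0 in the 2-group fit, and in spleen against PHZ BM HSC it was 2 with voom. Leaving out libraries gave 4 to 17, 0 to 3 and 0 to 6, from fewer samples. Over all genes, the counts with no filter were 205, 46 and 62 of 15142, against 311, 86 and 111. Spleen against control had 39 with pseudocount 0.1 and 44 in the 2-group fit, and spleen against PHZ BM HSC had 65 with voom. Leaving out libraries gave 115 to 306, 14 to 83 and 6 to 146.

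Small differences changed sign when a library was left out. In PHZ BM HSC against control the ranges were -0.048 to 0.13 for Tet1, -0.064 to 0.12 for Tet3 and -0.027 to 0.12 for Idh2. In spleen against control they were -0.10 to 0.25 for Tet1, -0.19 to 0.0029 for Dnmt3b and -0.29 to 0.17 for Uhrf1. In spleen against PHZ BM HSC they were -0.16 to 0.19 for Tet1, -0.088 to 0.098 for Dnmt3a, -0.040 to 0.40 for Dnmt3b and -0.27 to 0.13 for Idh1, which was 0.016 with voom. Relative to the MCM mean, spleen against control ranged from -0.25 to 0.016 for Dnmt1, -0.14 to 0.13 for Uhrf1 and -0.10 to 0.13 for Dnmt3b, and spleen against PHZ BM HSC from -0.093 to 0.20 for Dnmt1. With the other replication genes as the scale, Dnmt1 was 0.091 in PHZ BM HSC and -0.18 in spleen against PHZ BM HSC, and Uhrf1 0.013 in spleen against control. The Tet2 share differed by -0.603 to 10.7 percentage points in spleen against control and by -4.76 to 6.50 against PHZ BM HSC, and the Idh2 share by -3.94 to 0.232 against PHZ BM HSC. The cause of these changes was not tested. With 2 spleen libraries and 191 to 358 reads for Tet2, the precision of that gene is limited.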
